A study of Mus musculus with 4 samples.

Results

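The genes described here mark the blood vessels of the postnatal cerebellum and the red blood cells inside them. The 9 genes are the endothelial genes CLDN5, PECAM1, KDR, FLT1, TEK and TIE1 and the red blood cell genes HBA-A1, HBB-B1 and ALAS2, written with the symbols of the array. They were chosen by name, as all probes that the array assigns to one of these symbols, which gave 22 of 45281 probes and 9 of 30854 symbols. A probe is a short DNA sequence matching a transcript, and its signal is the mean brightness of the many beads that carry it.

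The study compared the anterior and the posterior lobes of the cerebellum in Swiss mice at PN7, a stage at which granule neurons still proliferate. Both lobes came from animals that had received no treatment, and no transgene or mutation is given in the labels. There were 2 samples per lobe, each hybridized to its own Illumina MouseWG-6 v2.0 array. The labels do not say whether the samples came from separate animals, so the p-values measure only the spread between these samples, which may be technical.

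Endothelial cells line the vessels, and in the brain their tight junctions form the blood-brain barrier. They respond to vascular endothelial growth factors (VEGF) through KDR and FLT1 and to angiopoietins through TEK, whose orphan relative TIE1 modulates that signal. During the postnatal growth of the cerebellum vessels sprout and branch with the tissue. Mature red blood cells of the mouse have no nucleus, but young ones, the reticulocytes, still carry globin mRNA, so blood left in dissected tissue contributes these transcripts. The sources used here do not say whether the animals were perfused.

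The median intensity was between 110.2 and 129.6 on the 4 arrays, lowest on that of anterior replicate 2, and 46.5% to 47.6% of the probes were detected at a detection p-value under 0.05. After quantile normalization between arrays and log2 transformation, the difference between the arrays of one lobe had an SD over probes of 0.318 in the anterior and 0.203 in the posterior lobe. The number of arrays limits the precision. With 2 arrays against 2, an exact two-sided permutation test cannot give a p below 0.333, so the tests below come from limma fitted across all 21726 probes that were detected on at least 2 arrays, with Benjamini-Hochberg adjustment over all of them.

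The promoters of a few members are shown because they carry short motifs known from erythroid and endothelial promoters. They come from RefSeq on the reference assembly GRCm38.p6, not from the Swiss strain, and each covers the 150 bases before the annotated start, 5′ to 3′ on the strand of the gene. Entries were matched for 7 of the 9 genes, and none was matched for Pecam1 and Hbb-b1. For the red blood cell genes the capitals mark, on either strand, the letters GATAA, bound by erythroid GATA factors, the letters CACCC, bound by Krüppel-like factors, and the CCAAT box and the TATA box (TATAA).
Hba-a1, chr11:32283522-32283671, plus strand: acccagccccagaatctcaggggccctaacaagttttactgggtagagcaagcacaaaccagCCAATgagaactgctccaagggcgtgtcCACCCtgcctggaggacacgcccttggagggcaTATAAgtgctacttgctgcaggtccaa
Alas2, chrX:150547267-150547416, plus strand: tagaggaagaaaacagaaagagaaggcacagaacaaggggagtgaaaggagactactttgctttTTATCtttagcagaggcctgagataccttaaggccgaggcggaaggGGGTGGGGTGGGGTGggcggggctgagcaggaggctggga
In the endothelial genes the capitals mark GGAA, the core of the ETS factor motif, and TATAA, again on either strand.
Flt1, chr5:147726012-147726161, minus strand: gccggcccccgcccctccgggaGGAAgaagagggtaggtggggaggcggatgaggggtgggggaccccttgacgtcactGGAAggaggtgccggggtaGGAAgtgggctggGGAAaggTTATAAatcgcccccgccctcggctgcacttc
Tie1, chr4:118489850-118489999, minus strand: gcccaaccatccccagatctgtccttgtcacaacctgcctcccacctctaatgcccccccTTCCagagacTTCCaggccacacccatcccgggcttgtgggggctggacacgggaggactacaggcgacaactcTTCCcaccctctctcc

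The Hba-a1 window held 1 CACCC, 1 CCAAT and 1 TATAA and no GATAA. The Alas2 window held 1 GATAA and 3 CACCC, all on the opposite strand, and no CCAAT or TATAA. GGAA occurred in 4 of the 5 endothelial windows, with 4 matches in Flt1, 3 in Tie1, 2 in Kdr and 2 in Tek, while none was in Cldn5. Flt1 also held 2 overlapping TATAA matches, 1 on each strand. Over 32851 promoter windows of the same length GATAA was present in 13.3%, CACCC in 37.4%, CCAAT in 24.5%, TATAA in 14.2% and GGAA in 80.8%, so most promoters hold an ETS core. These matches describe the letters in the windows and were not tested as binding sites. The entries of Hba-a1 and its neighbouring copy Hba-a2 share a run of 297 of 300 bases. Probe sequences were not used here, so whether the HBA-A1 probe reads 1 or both copies is not known. The adult beta-globin genes are also close copies, and the signal of HBB-B1 is uncertain in the same way.

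Endothelial and red blood cell transcripts were present in both lobes, and none of the 9 genes passed a test between them. Of the 22 probes, 20 were detected, all of them on all 4 arrays, and these were tested. None was past an adjusted p of 0.05 by limma, where 0.106% of all tested probes were, and the adjusted p ranged from 0.383 to 0.932. The criterion used here took the study's thresholds, more than 1.2-fold at p under 0.05, with unadjusted limma p-values. It was met by none of the 20 probes and by 8.29% of all tested probes. With the t-test of the study's methods, no member probe and 3.41% of all tested probes met it. At an unadjusted p under 0.05, 3 member probes were counted, all of HBB-B1, against 10.1% of all tested probes. When anterior replicate 1 was left out, PECAM1 ILMN_2700982 was at -0.47, TIE1 at -0.45, HBB-B1 ILMN_2544056 at 0.47 and HBB-B1 ILMN_1235372 at 0.36. Without anterior replicate 2 the same probes were at -0.09, 0.09, 0.16 and -0.03. ALAS2 was at 0.08 without anterior replicate 1 and at 0.33 without anterior replicate 2. In 8 of the 20 probes both arrays of one lobe lay beyond both of the other, against 42.6% of all tested probes. As the tissue is bulk, fewer cells of a type and less RNA per cell cannot be told apart.

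**Figure D1:**
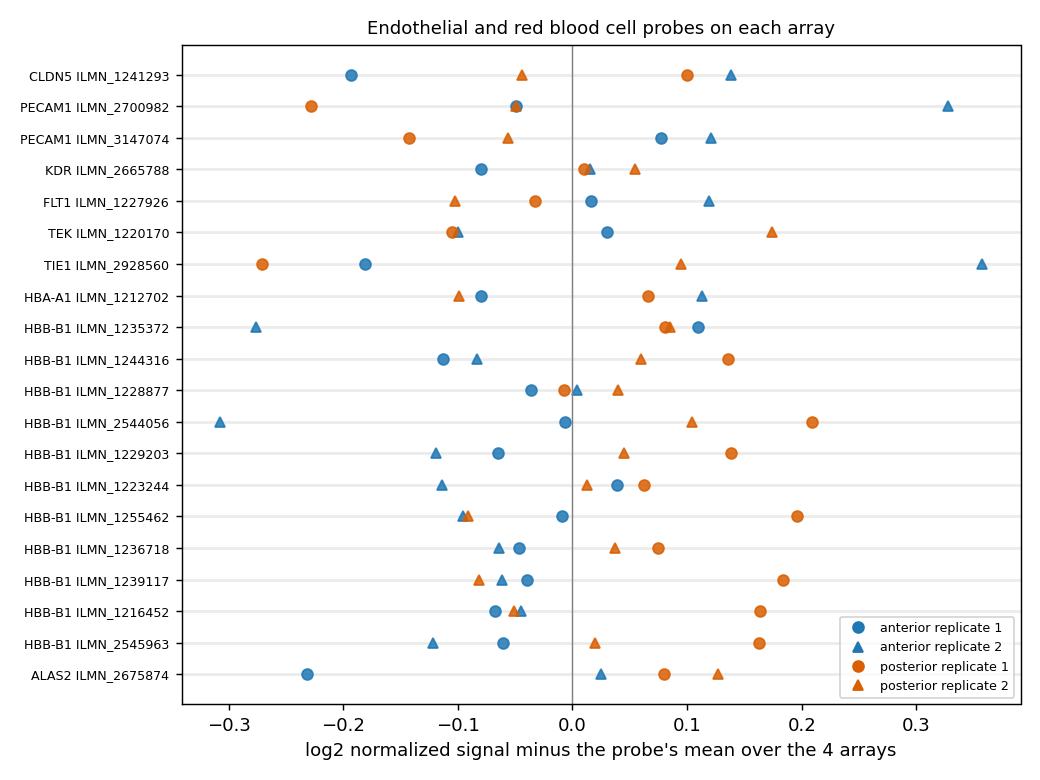
Each point is the log2 normalized signal of 1 of the 20 tested probes on 1 array, minus the mean of that probe over the 4 arrays, with anterior arrays in blue, posterior arrays in orange, circles for replicate 1 and triangles for replicate 2. The lobes overlap in 5 of the 7 endothelial probes and in 7 of the 13 red blood cell probes.

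CLDN5 encodes claudin 5, the main tight junction protein between endothelial cells of the brain. Its deposited intensity was 5000.0 and 5377.5 on the anterior and 5556.0 and 5263.6 on the posterior arrays, in the order of the replicates. The normalized log2 signals were 12.18 and 12.51 in the anterior and 12.47 and 12.33 in the posterior lobe. The posterior values lay between the anterior ones, and the difference, posterior minus anterior, was 0.06 with a 95% interval of -0.25 to 0.36 (SE 0.123, adjusted p = 0.907 by limma).

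PECAM1, an adhesion molecule at the contacts between endothelial cells and also found on platelets and some leukocytes, was measured by 2 probes that both gave lower mean signals in the posterior lobe. The probe ILMN_2700982 had log2 signals of 9.38 and 9.75 in the anterior and 9.20 and 9.38 in the posterior lobe. ILMN_3147074 had 8.04 and 8.08 against 7.82 and 7.90. Anterior replicate 2 was the highest array for both probes, and only the second probe kept the lobes apart. The differences were -0.28 (SE 0.161, adjusted p = 0.602) and -0.20 (SE 0.113, adjusted p = 0.598), with 95% intervals of -0.67 to 0.12 and -0.48 to 0.08. The size of the first probe's difference depended on which anterior array was kept. It was -0.47 without anterior replicate 1 and -0.09 without anterior replicate 2.

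KDR is the main signalling receptor for VEGF, and FLT1 is a second receptor that binds VEGF tightly and in its soluble form holds it back. Both have 2 probes, and 1 of each (ILMN_2572649 for KDR and ILMN_2732721 for FLT1) was not detected on any array, with intensities of 66.6 to 84.3 and 78.0 to 103.7. These carry no test. The detected KDR probe was dim, at intensities of 152.3 to 173.8. Its log2 signals were 7.30 and 7.39 in the anterior and 7.39 and 7.43 in the posterior lobe. The lobes met at the second anterior and the first posterior array, and the difference was 0.06 with a 95% interval of -0.19 to 0.31 (SE 0.102, adjusted p = 0.863). The detected FLT1 probe had intensities of 1830.8 and 1711.3 in the anterior and 1600.2 and 1595.2 in the posterior lobe. On the normalized log2 scale these were 10.73 and 10.84 against 10.68 and 10.61. Both posterior arrays lay below both anterior arrays, but the difference of -0.14 (95% interval -0.36 to 0.09, adjusted p = 0.652) was not past the threshold.

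TEK is the angiopoietin receptor, and TIE1 forms complexes with it. TEK gave log2 signals of 10.44 and 10.31 in the anterior and 10.31 and 10.59 in the posterior lobe. The difference was 0.07, within the spread of the posterior arrays (95% interval -0.24 to 0.38, adjusted p = 0.882). TIE1 gave 8.15 and 8.69 against 8.06 and 8.43. In both lobes replicate 2 was the higher array, by more than the lobes differed, and TIE1 had the widest interval of the endothelial probes, from -0.72 to 0.36 around a difference of -0.18 (SE 0.220, adjusted p = 0.817).

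With each gene represented by its brightest probe, 3 of the 6 endothelial genes had a positive and 3 a negative difference, and their median was -0.04 beside 0.0023 over all tested probes. The median was -0.15 without anterior replicate 1 and 0.048 without anterior replicate 2. The sum of their normalized signals was 8842 and 10384 on the anterior and 9622 and 9435 on the posterior arrays, so both posterior sums lay between the anterior ones.

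HBA-A1 encodes the alpha chain and HBB-B1 a beta chain of adult haemoglobin, and ALAS2 is the enzyme that starts haem synthesis in red cell precursors. HBA-A1 had intensities of 13117.3 and 12904.3 in the anterior and 13420.4 and 12284.7 in the posterior lobe. The log2 signals were 13.57 and 13.77 against 13.72 and 13.56. The lobes overlapped fully, with a difference of -0.03 and a 95% interval of -0.26 to 0.19 (SE 0.0914, adjusted p = 0.931).

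HBB-B1 is covered by 11 probes, all detected on every array, with intensities from 122.2 to 16179.5. They carry the same gene symbol and were read in the same 4 samples, and are not independent measurements. In all 11 the mean was higher in the posterior lobe, by 0.03 to 0.31 on the log2 scale with a median of 0.11, where 50.6% of all tested probes had a positive difference. Posterior replicate 1 was the highest normalized array for 9 of the 11 probes, and anterior replicate 2 the lowest for 7. In the deposited intensities, before any normalization, anterior replicate 2 was the lowest array for all 11, and that array also had the lowest median intensity.

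The brightest HBB-B1 probe, ILMN_1236718, had log2 signals of 13.86 and 13.84 in the anterior and 13.98 and 13.94 in the posterior lobe, a difference of 0.11 (adjusted p = 0.552). ILMN_1244316, which had the smallest p of the members, gave 13.63 and 13.66 against 13.88 and 13.81. Its lobes were apart, with a difference of 0.20 and a 95% interval of 0.05 to 0.34, but the adjusted p was 0.383. ILMN_2544056 showed the largest difference of the members, with 9.76 and 9.46 against 9.97 and 9.87. Anterior replicate 2 was the lowest array and the lobes were apart, and the difference of 0.31 had a 95% interval of -0.02 to 0.65 (SE 0.137, adjusted p = 0.523). The difference was 0.47 without anterior replicate 1 and 0.16 without anterior replicate 2. At the other end ILMN_1228877, the dimmest probe, gave 7.04 and 7.08 against 7.07 and 7.12, a difference of 0.03 (adjusted p = 0.932). Its detection p-values, 0.041 to 0.049, were just under the threshold of 0.05, so its signal was near the limit of detection.

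**Figure D2:**
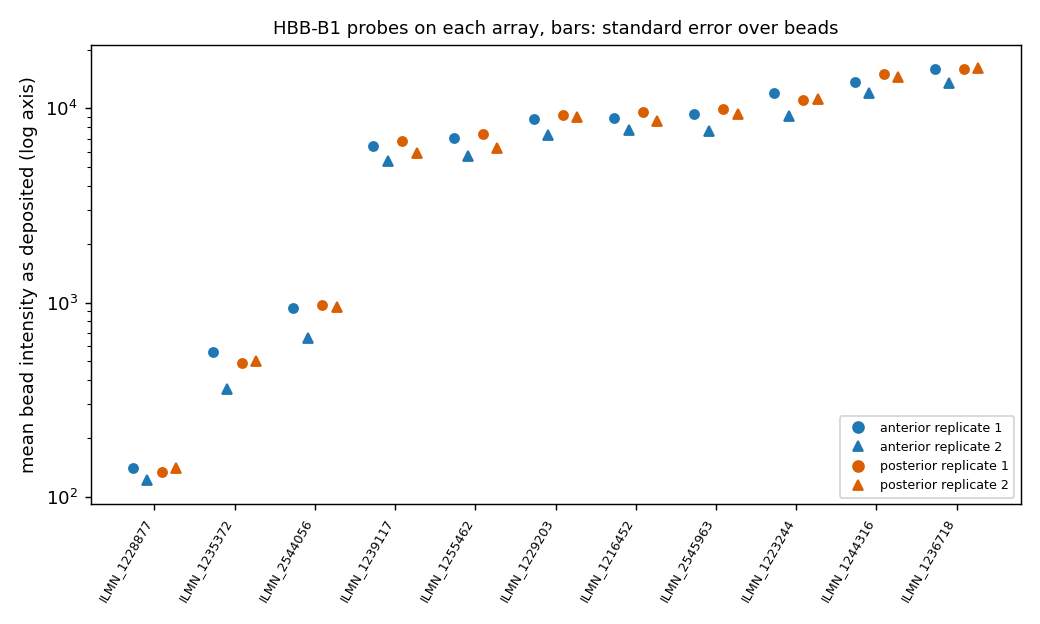
Deposited mean bead intensity of the 11 HBB-B1 probes on the 4 arrays, on a log axis, with bars for the standard error over beads, most of them smaller than the symbols. Anterior replicate 2, the blue triangle, is the lowest array for every probe.

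Within the replicate numbers the HBB-B1 probes differed between the lobes by -0.03 to 0.25 for replicate 1, with 10 of 11 above 0, and by -0.02 to 0.41 for replicate 2, with 9 of 11 above 0. The lobes were apart for 5 of the 11 probes, near the share of 42.6% over all tested probes. The precision of a single array was high, since each member probe was read from 21 to 80 beads with a standard error of 2.03% to 8.63% of its intensity, but this covers only the measurement on that array.

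ALAS2 had intensities of 345.6 and 343.4 in the anterior and 381.8 and 404.4 in the posterior lobe, and log2 signals of 8.29 and 8.55 against 8.60 and 8.65. Both posterior arrays were above both anterior arrays. The difference was 0.21 with a 95% interval of -0.13 to 0.54 (SE 0.137, adjusted p = 0.645). With 1 probe per gene the median of the 3 red blood cell genes was 0.11, and the sums of their normalized signals were 27381 and 29002 in the anterior and 30058 and 28199 in the posterior lobe. The sum of posterior replicate 2 was below that of anterior replicate 2, so the lobes overlapped.

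**Figure D3:**
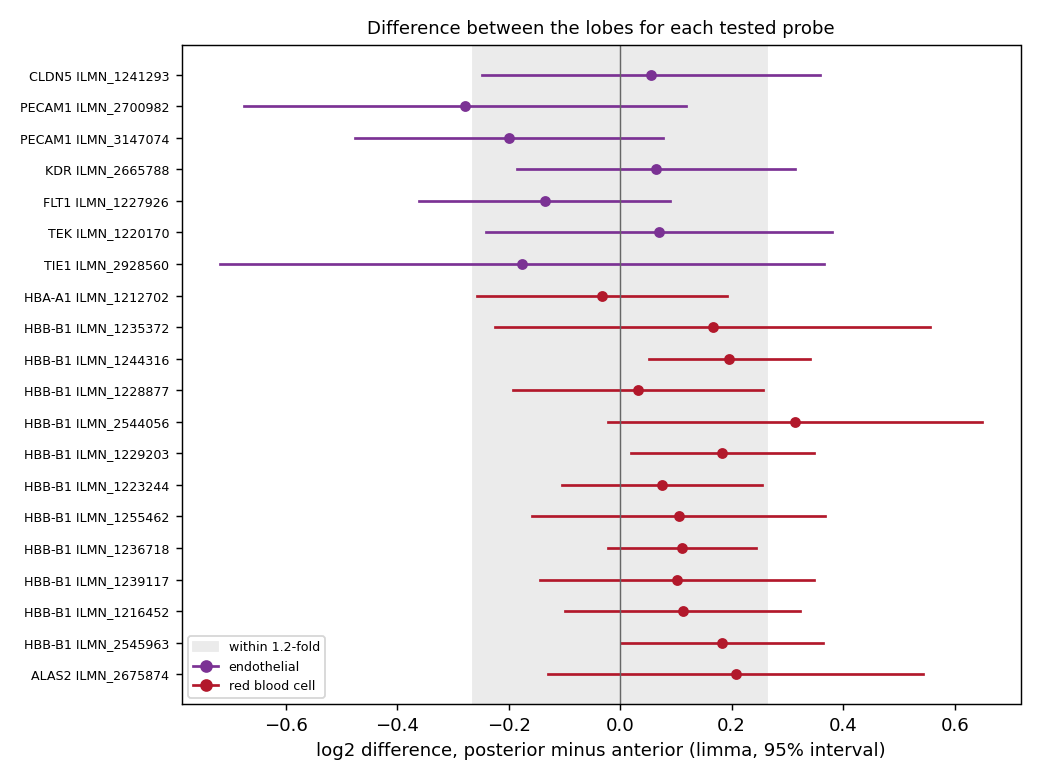
Log2 difference, posterior minus anterior, of each of the 20 tested probes with its 95% interval from limma, endothelial genes in purple and red blood cell genes in red, with the range within 1.2-fold shaded. Only 2 of the point estimates, the PECAM1 probe at -0.28 and the HBB-B1 probe at 0.31, lie outside the shaded range, and both intervals include 0.

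No other globin gene was tested. HBA-X, HBB-BH1 and HBB-Y, the embryonic globins, and HBB-B2, the second adult beta chain, were not detected on any array, at intensities of 64.7 to 114.8. Beyond the globins, 11 of 27 erythroid regulators and membrane proteins were tested, and GATA1, the master regulator of erythroid genes, was among those not detected on 2 arrays. Of the 11, 5 had a positive and 6 a negative difference, and 2 met the criterion, both lower in the posterior lobe. They were ANK1, the ankyrin that ties the membrane to its skeleton, at -0.27 (adjusted p = 0.379) and CAR2, a carbonic anhydrase also made by oligodendrocytes, at -0.30 (adjusted p = 0.437). Neither met the criterion without posterior replicate 1 or without posterior replicate 2, nor did CAR2 without anterior replicate 1. Beside CAR2, all 5 oligodendrocyte markers were lower in the posterior lobe and met the criterion, with a median of -0.99 and with MAG (-0.99) and MOBP (-1.14) past the adjusted p, their summed signal being 62593 to 63311 in the anterior and 40863 to 42061 in the posterior lobe. Without posterior replicate 1 or posterior replicate 2 no probe of the array passed the adjusted p. The part of these markers in the CAR2 difference was not tested. The highest difference of the erythroid list was 0.15 for ERAF, which stabilizes free alpha globin (adjusted p = 0.623).

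Of 12 tested genes for haem synthesis and iron uptake, 6 had a positive and 6 a negative difference, and none met the criterion. They ranged from -0.19 for FECH, which inserts iron into haem, to 0.25 for ABCB10, a mitochondrial transporter (adjusted p = 0.602 and 0.705). Of 5 tested genes that clear haemoglobin and haem, HMOX1, the enzyme that breaks haem down, met the criterion at 0.31 (SE 0.118) with an adjusted p of 0.465. It no longer met the criterion without anterior replicate 1 (0.21), posterior replicate 1 (0.32) or posterior replicate 2 (0.30). HP, the haptoglobin that binds free haemoglobin, was not detected in the posterior lobe and passed the detection filter through the anterior arrays alone. The filter thus favoured a lower posterior value. Its mean posterior signal was at least 1.10-fold lower, but the 95% interval of the log2 difference was -0.54 to 0.07 (adjusted p = 0.578 by limma). Among 13 platelet and leukocyte markers ITGA2B alone was tested, with a difference of 0.08, while S100A8, S100A9 and PTPRC were among those not detected on 2 arrays.

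Of the growth factors and co-receptors that act on the endothelial receptors, 9 of 12 were tested, 4 with a positive and 5 with a negative difference, and the median was -0.01. ANGPT2, the angiopoietin that can block TEK in sprouting vessels, had log2 signals of 9.42 and 9.24 in the anterior and 9.77 and 10.02 in the posterior lobe. Both posterior arrays were higher, by 0.56 on average (SE 0.137), which met the criterion of the study but not the adjusted p (0.292). The difference was 0.66 without anterior replicate 1, and without posterior replicate 2 the difference of 0.44 no longer met the criterion. FIGF, the growth factor VEGF-D, was dim and detected on 3 arrays, and with a difference of 0.33 it also met the criterion (adjusted p = 0.381), except without posterior replicate 2 (0.28). ANGPT1, the ligand that activates TEK, differed by 0.01 and VEGFA, the main ligand of KDR, by -0.15, the latter with an adjusted p of 0.777. VEGFC, a ligand mainly of the lymphatic receptor, had the lowest value of the list, -0.16.

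Beside ANGPT2 and FIGF, the 7 meningeal fibroblast markers, genes of the tissue that covers the cerebellum, were mostly higher in the posterior lobe. Of these, 6 of 7 had a positive difference, 5 met the criterion and DCN (0.93, adjusted p = 0.0235) and OGN (2.00, adjusted p = 0.0353) passed the adjusted p. Both adjusted calls were lost without posterior replicate 1 and without posterior replicate 2, at differences of 0.92 and 0.94 for DCN and of 2.24 and 1.76 for OGN. COL3A1, LUM and IGF2 no longer met the criterion without posterior replicate 2, nor did LUM without posterior replicate 1. The lowest was COL1A2 at -0.04, or 0.03 when the arrays were scaled to a common 75th percentile. The median was 0.51, the summed signal was 15141 to 17120 in the anterior and 22904 to 26724 in the posterior lobe, and none of the 7 was undetected. Their part in the values of ANGPT2 and FIGF was not tested.

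Among 18 tested further endothelial genes none met the criterion when 1 probe per gene was taken, 5 had a positive and 13 a negative difference, and the median was -0.04, the same as for the endothelial members. The extremes were SOX18, a transcription factor of vessel growth, at -0.25 (adjusted p = 0.544) and CDH5, the cadherin of endothelial junctions, at 0.20 (adjusted p = 0.628). A second CDH5 probe, dimmer and named after its value was seen, gave 0.46 and met the criterion (adjusted p = 0.316), so the probes of this gene differed in size.

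Of 10 tested blood-brain barrier genes 5 were on each side of 0, and PLVAP, the diaphragm protein of leaky vessels, met the criterion. Its log2 signals were 9.53 and 9.36 in the anterior and 9.07 and 9.04 in the posterior lobe, a difference of -0.39 (SE 0.120, adjusted p = 0.396). The criterion was not met without posterior replicate 1 (-0.40) or posterior replicate 2 (-0.37). CAV1, a caveolae protein, had the highest value of the list, 0.08. The vessels of the choroid plexus are of the leaky kind. Of its 5 markers CLIC6 was at -0.89 and met the criterion, but not without posterior replicate 1 (-0.66) or with the methods' t-test. TTR was at -1.11 with an SE of 1.60 (1.01 without anterior replicate 2 and 0.63 without posterior replicate 1). Within replicate numbers 1 and 2 TTR differed by -0.73 and -1.49. It passed the adjusted p by limma when the replicate number was added to the fit, though the labels do not say what equal numbers share. FOLR1, KCNE2 and KL were not detected on 2 arrays. The summed signal of CLIC6 and TTR was 1009 and 11083 in the anterior and 600 and 4060 in the posterior lobe, higher for replicate 2 in both. Its part in the PLVAP difference was not tested.

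Of 9 tested genes of Wnt7 and norrin signalling, which induces the barrier in brain endothelium, 5 had a positive and 4 a negative difference. WNT7A, a ligand made by neural cells, met the criterion at -0.41, with log2 signals of 10.49 and 10.72 in the anterior and 10.13 and 10.25 in the posterior lobe (SE 0.116, adjusted p = 0.354). The difference was -0.53 without anterior replicate 1, and the criterion was lost without posterior replicate 1, at -0.35. GPR124, the endothelial co-receptor for Wnt7, was not detected in the anterior lobe and passed the detection filter through the posterior arrays alone. The filter thus favoured a higher posterior value. Its mean posterior signal was at least 1.08-fold higher, but the 95% interval of the log2 difference was -0.01 to 0.47 (adjusted p = 0.513 by limma). Of 10 tested pericyte and smooth muscle genes, the cells that wrap the vessels, 5 were on each side of 0 and none met the criterion. RGS5, a pericyte marker, had a difference of -0.56 that came from the anterior replicate 2 array, at 9.05 against 7.81 to 7.93 on the other arrays (SE 0.376, adjusted p = 0.648). The difference was 0.05 without that array and -1.17 without anterior replicate 1. VTN, also made by pericytes, was at 0.18.

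Of 9 tested hypoxia-induced genes none met the criterion. They ranged from -0.22 for SLC2A1, the glucose transporter of the barrier, to 0.19 for EGLN3, an oxygen sensor, with a median of 0.05. Among the other cell types, the 5 tested microglia markers lay between 0.00 (CSF1R) and 0.11 (C1QB), the 4 astroglia markers between -0.25 (AQP4) and 0.00 (SLC1A3), with none past the criterion. Of 8 cerebellar neuron markers, 6 were tested between the lobes. They had a median of 0.01 and ranged from -0.25 for PVALB of Purkinje cells and interneurons to 0.72 for ZIC2 of granule neuron precursors, which met the criterion, but not without posterior replicate 1 (0.61) or with the methods' t-test. ATOH1 and CALB1 were the markers not detected on 2 arrays.

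**Figure D4:**
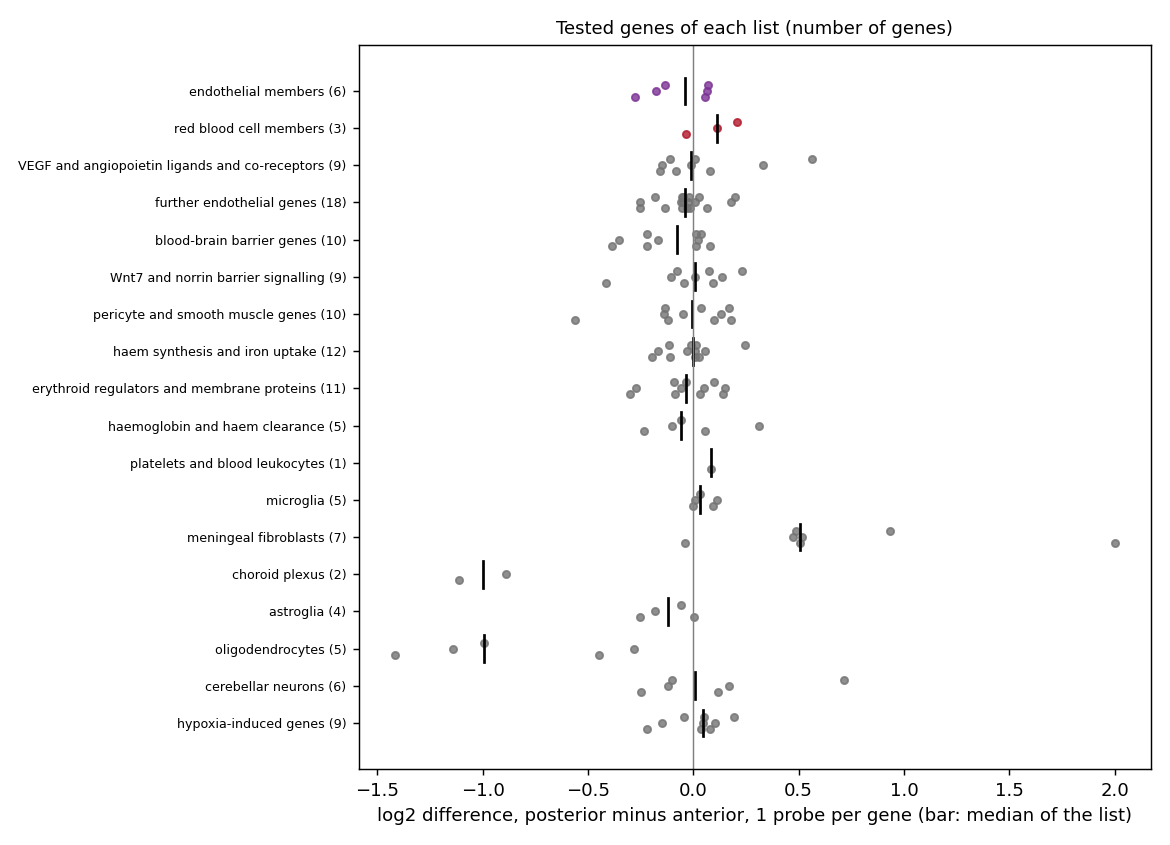
Log2 difference, posterior minus anterior, of the tested genes of each list with 1 probe per gene, where each point is a gene, the bar is the median and the number of genes stands in parentheses. The endothelial and red blood cell members lie within 0.28 of 0, while meningeal fibroblast genes extend to 2.00 and oligodendrocyte genes to -1.41.

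The mean profile of the 13 red blood cell probes over the anterior replicates was -0.05 and -0.09 and over the posterior replicates 0.12 and 0.02, as log2 signal minus each probe's mean. As 11 of the 13 are HBB-B1 probes, it is mostly the profile of that gene. HBA-A1 differed from it, with anterior replicate 2 its highest and posterior replicate 2 its lowest array. The probes of other genes nearest to this profile, by root mean square distance over the 4 arrays, included those of SLC39A10 and CNPY2, at 0.00507 and 0.00509, and of BUD31 and 1700001J11RIK, at 0.00681 and 0.00760. Of 19894 candidate probes 1180 lay within 0.05 and the median distance was 0.125. With 4 arrays and a profile this flat, many probes come close, and the order among them carries no meaning beyond the spread between arrays.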

How the data were processed

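RNA of 2 anterior and 2 posterior cerebellar lobe samples was read on Illumina arrays. The authors deposited bead intensity as GenomeStudio 1.9.0 gave it without normalization, as a mean and an SD over beads with the bead number of each probe. They also deposited a detection score, a fraction that was subtracted from 1 here to give the detection p-value. The labels number the samples, and these numbers tied array columns to lobes. A further 16 columns were left unused.

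Intensities were quantile normalized, floored at 1 and log2 transformed (R 4.3.3). Detection at a p-value under 0.05 on 2 arrays or more was required, and probes were tested with limma 3.58.1 (lmFit, eBayes with an intensity trend), with Benjamini-Hochberg adjustment, after a check on simulated data. Where a probe was not detected in a lobe, the fold is a bound against the higher of its own signal and the lowest detected signal of each array. Every member probe is reported, and from each of 17 further lists the largest difference in each direction and each gene past the criterion, with 1 probe per gene, plus the 5 nearest profiles, though a few genes under this rule are not reported here. ANGPT1 and VEGFA are named besides. The members and lists were chosen with earlier results of these data known. The alternatives were cyclic loess, neqc, scaling to a common 75th percentile, intensities left unnormalized, a floor of 32, other detection filters, eBayes without trend, the t-test of the methods, a 1.5-fold threshold, a replicate block and each array left out, and the named genes of the further lists were run under them as well, a choice made after seeing the data.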

Additional observations from a re-analysis of the deposited data

How the results depend on the processing

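With 2 arrays per lobe, the probe-wise spread rests largely on what limma borrows from other probes, and 1 array can decide a call. Over 15 alternatives and 298 pairs of a member probe and an alternative, 284 kept their direction and side of the adjusted p, 12 turned and 2 newly passed, and 12 of the 20 probes never turned. Scaling to a common 75th percentile moved the median of all probes from 0.0023 to 0.032 and the share of higher posterior signals among criterion calls from 39.7% to 53.5%.

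The 23 tested probes past the adjusted p became 123 with no normalization, 73 with no filter, 13 with eBayes without the trend and 0 with the methods' t-test (1763 at an unadjusted p under 0.05), and 0 to 2538 when an array was left out, the most without anterior replicate 1. The 1802 past the criterion became 741 by that t-test, 389 past 1.5-fold and 766 to 4677 with an array left out. Samples with the same replicate number deviated together (r = 0.46 across 21726 probes, which are not independent), but with 2 pairs and no statement in the labels they share only a number. With the replicate block 588 probes passed the adjusted p and 2818 the criterion, with 2 member probes past the criterion (PECAM1 ILMN_2700982 and HBB-B1 ILMN_2544056). Of the genes named from the lists, TTR (-1.11, adjusted p = 0.00321 by limma), CLIC6, ZIC2, IGF2, MBP and MOG newly passed the adjusted p with this block.

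Member probes past the adjusted p numbered 0 to 2 and past the criterion 0 to 4 with an array left out. A common 75th percentile gave 1 past the criterion (HBB-B1 ILMN_2544056), where 8.41% of all tested probes met it. With no filter there was 1 (FLT1 ILMN_2732721, not detected), where 5.51% of all probes met it. The endothelial median of -0.04 was -0.15 to 0.048 with an array left out, lowest without anterior replicate 1, and -0.14 at a detection p under 0.01, and the red blood cell median of 0.11 was 0.17 at a common 75th percentile. Leaving out arrays gave -0.11 to 0.22 for CLDN5, -0.070 to 0.21 for TEK, -0.45 to 0.093 for TIE1 and -0.13 to 0.063 for HBA-A1, which was also 0.014 at a common 75th percentile. For the HBB-B1 probes it gave -0.0017 to 0.15 (ILMN_1223244), -0.026 to 0.36 (ILMN_1235372), -0.032 to 0.24 (ILMN_1239117) and -0.039 to 0.25 (ILMN_1255462). Among the other named genes it gave -0.094 to 0.26 for CAV1, -1.17 to 0.052 for RGS5, -0.0083 to 0.010 for CSF1R, -0.080 to 0.31 for C1QB, -3.23 to 1.01 for TTR and -0.066 to 0.074 for SLC1A3. With no normalization CSF1R was at -0.0074 and SLC1A3 at -0.052, at a common 75th percentile COL1A2 was at 0.030 and SLC1A3 at -0.020, and with cyclic loess SLC1A3 was at -0.073. The criterion was not met by ANK1 with no normalization, a common 75th percentile or cyclic loess, by FIGF, CAR2 and HMOX1 with no normalization, and by ANGPT2, WNT7A, HMOX1, COL3A1, LUM, IGF2, CLIC6 and ZIC2 with the methods' t-test. The cause of these changes was not tested.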
